A study of Mus musculus with 12 samples.

Results

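ATP-dependent chromatin remodelers use ATP to slide, evict or exchange nucleosomes, and their genes were followed here through the first cell cycles of the mouse embryo. Genes were taken by symbol from the Smarca to Smarce, Chd, Ino80 and Ruvbl names, together with Arid1a, Arid1b and Arid2, if they had 10 or more counts in 3 or more of the 12 libraries. The name patterns matched 36 of the 55291 genes in the deposited table, and 34 met the count minimum. All 34 were among the 21160 genes tested: 32 encode remodeler proteins, Smarca5-ps is a pseudogene and Ino80dos is a non-coding gene opposite Ino80d. The 2 genes below the minimum were Smarca1, which had at most 0.337 CPM in any library, and the pseudogene Smarce1-ps1, with at most 0.203 CPM (CPM, counts scaled to 1e+06 counts of a library after TMM scaling).

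RNA of mouse embryos was measured by Smart-seq2, an oligo(dT)-primed full-length cDNA method, in 12 libraries. The 4 groups of 3 were wild-type (WT) embryos at the stage labelled PN3, embryos with a maternal Pan2 deletion (KO) at PN3, WT embryos at the stage labelled L2C, and KO embryos at L2C. By the series design these are zygotes and 2-cell embryos, though the extraction text speaks of oocytes in place of zygotes. Not given in the sources used here are the strain, the part of Pan2 that was deleted, any Cre driver, the number of embryos per library and the genotype of the fathers. The labels do not state that replicates came from separate collections, so the p-values reflect the spread between libraries, which may be technical.

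Remodelers fall into families by their ATPase. SWI/SNF (BAF and PBAF) complexes carry Smarca4 or Smarca2, ISWI complexes carry Smarca5 or Smarca1, the NuRD complex carries a CHD ATPase such as Chd4, and INO80 is built on Ino80 with the RuvB-like AAA+ ATPases Ruvbl1 and Ruvbl2. The egg supplies the first of these proteins and mRNAs, many of these mRNAs are cleared as the embryonic genome is switched on, and maternal Smarca4 is known from mouse work to be needed past the 2-cell stage. Pan2 is the catalytic subunit of a deadenylase that shortens poly(A) tails. An oligo(dT) primer needs such a tail, so a change in mRNA abundance and a change in the share of mRNA that could be primed cannot be told apart here, nor can fewer embryos in a sample and less RNA per embryo.

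Total counts ran from 14453592 to 28624766 per library, and 3 counts corresponded to 0.109 to 0.171 CPM. Pan2 itself stood at 174 ± 14.6 CPM in WT PN3 against 4.26 ± 2.56 in KO PN3 (mean ± SD, n = 3 in every group throughout), and at 63.8 ± 4.72 and 22.5 ± 10.4 CPM at L2C. The 8 oocyte and early embryo markers summed to 13030 to 21495 CPM at PN3 and 3263 to 6410 CPM at L2C. In 4 libraries the gene CT010467.1 took a larger share of counts than in the others of the same group: 34.9% and 32.2% in replicate 2 of WT and KO PN3, and 24.04% and 33.96% in replicate 3 of WT and KO L2C, against 4.35% to 5.63% in the other PN3 libraries and 12.7% to 13.9% in the other L2C libraries. These 4 libraries, called below the libraries that stood apart, did so unevenly in the remodeler genes. Against the other libraries of the group, their median log2 shift over the 34 genes was 0.56 in WT PN3 and 0.52 in KO PN3. It was 0.06 in WT L2C and 0.39 in KO L2C. Summed over the 34 genes, replicate 2 held 3769 CPM in WT PN3 against 3958 CPM in KO PN3, while the other PN3 libraries held 2237 to 2587 CPM. At L2C replicate 3 held 2449 CPM against 2118 and 2164 CPM in WT, and 2517 CPM against 1958 and 1991 CPM in KO. Chd4, Chd5, Chd7, Chd8, Smarca4, Smarcd1 and Smarcd2 were over 2-fold above the mean of the other libraries in replicate 2 of both PN3 groups. Replicates 1 and 2 of each L2C group were much closer than other replicates, with a chi-square per degree of freedom of 3.39 in WT and 3.70 in KO against 17.8 to 718 for every other pair of replicates, which is still above sampling noise. Counts of calls are therefore also given without these 4 libraries, with the genes that gained or lost a call.

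The most abundant remodeler mRNAs of the WT zygote, per kilobase of gene model, were subunits and ATPases of several complexes. Arid1a, the ARID subunit that defines canonical BAF, stood highest at 45.4 ± 21.6 CPM per kb. Smarcd2, a BAF60 core subunit, followed at 25.6 ± 12.2, and Chd4, the NuRD ATPase, at 22.5 ± 11.4 CPM per kb. Ruvbl2 stood at 18.9 ± 3.38, Smarcal1, an annealing helicase of stalled replication forks, at 16.3 ± 2.63 and Smarca2 at 15.9 ± 1.08 CPM per kb. The SDs of Arid1a, Smarcd2 and Chd4 overlap, and replicate 2 was the highest library of each. Within every WT PN3 library Arid1a stood above Smarcd2 and Chd4, at 35.5, 70.2 and 30.5 CPM per kb. Smarcd2 and Chd4 were close in replicate 2, at 39.3 and 35.7, and in replicate 3. The order below Arid1a rested on replicate 2, which stood apart. In replicates 1 and 3 Ruvbl2 stood at 20.03 and 21.5 CPM per kb, above Chd4 at 16.4 and 15.5, with Smarcd2 at 21.8 and 15.8 CPM per kb. In WT L2C the order had changed: Ruvbl1 led at 98.2 ± 22.7 CPM per kb, followed by Smarcd2 at 25.6 ± 7.02, Arid1a at 24.3 ± 8.44 and Smarca5 at 18.8 ± 1.54 CPM per kb. Ruvbl1 also led in KO L2C, at 54.5 ± 18.2 CPM per kb.

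The other SWI/SNF genes spanned a wide range of levels per kilobase in WT, given here for PN3 and then L2C. Smarca4 stood at 12.2 ± 6.85 and 18.1 ± 4.21 CPM per kb. Arid2, which defines the PBAF form, stood at 14.3 ± 3.25 and 10.9 ± 2.68, and Arid1b, the alternative to Arid1a, at 13.5 ± 5.63 and 6.57 ± 1.71 CPM per kb. The core subunit Smarcb1 stood at 12.3 ± 2.71 and 8.14 ± 1.57, and Smarce1, the HMG-box subunit, at 6.95 ± 0.326 and 6.76 ± 0.185 CPM per kb. Of the paired scaffold subunits, Smarcc1 stood at 1.77 ± 1.02 and 9.26 ± 1.20 and Smarcc2 at 5.07 ± 0.609 and 2.25 ± 0.127 CPM per kb. The other BAF60 subunits were scarce, with Smarcd1 at 0.247 ± 0.221 and 1.44 ± 0.814 and Smarcd3 at 0.00237 ± 0.0041 and 0.0856 ± 0.0835 CPM per kb, both far below Smarcd2.

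Among the CHD genes the subfamilies differed as much. Chd7 stood at 15.5 ± 7.75 and 11.3 ± 1.75 CPM per kb in WT PN3 and WT L2C, Chd8 at 8.11 ± 5.92 and 4.48 ± 1.63, Chd6 at 6.95 ± 2.31 and 1.49 ± 0.0540, and Chd9 at 2.41 ± 0.179 and 1.05 ± 0.0265. These 4 form CHD subfamily III. Chd1, which binds H3K4-methylated chromatin, stood at 1.91 ± 0.557 and 12.6 ± 2.04 and its relative Chd2 at 0.162 ± 0.0718 and 0.246 ± 0.0751 CPM per kb. The NuRD ATPases other than Chd4 were low: Chd3 stood at 0.548 ± 0.174 and 0.448 ± 0.0975 and Chd5, best known from neurons and testis, at 0.742 ± 0.609 and 0.0746 ± 0.0624 CPM per kb. Of the remaining SNF2-family enzymes, Smarca5 in WT PN3 stood at 15.4 ± 3.05 CPM per kb, Smarcad1 at 6.33 ± 0.299 in PN3 and 7.65 ± 0.264 in L2C, and Chd1l, a PARP-linked remodeler also called ALC1, at 1.24 ± 0.268 and 0.548 ± 0.205 CPM per kb. In the INO80 family, Ino80 stood at 5.06 ± 1.31 and 5.34 ± 0.811, Ino80b at 8.78 ± 3.50 and 7.86 ± 2.03, Ino80c at 3.11 ± 0.601 and 16.4 ± 0.701, Ino80d at 7.88 ± 2.50 and 6.28 ± 1.63, and Ino80e at 5.27 ± 0.142 and 2.01 ± 0.133 CPM per kb. Part of Ino80e overlaps Hirip3 on the opposite strand (406 bases, with a mean of 5990 counts for Hirip3 and 533 for Ino80e). The Ino80e level is uncertain, because the sources used here do not state whether counting used the strand. The same holds for Ruvbl2, which overlaps Gys1, for Smarcd3, which overlaps Chpf2, and for Smarcc1, which overlaps Dhx30 (123 bases). Mean counts were 1450 for Dhx30 and 708 for Smarcc1. Chd2 overlaps 1810026B05Rik on the same strand. Ino80dos overlaps Gm20342 on the same strand, and Ino80d and Ndufs1 on the opposite one. The levels of Chd2 and Ino80dos are uncertain whether or not counting used the strand.

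**Figure D1:**
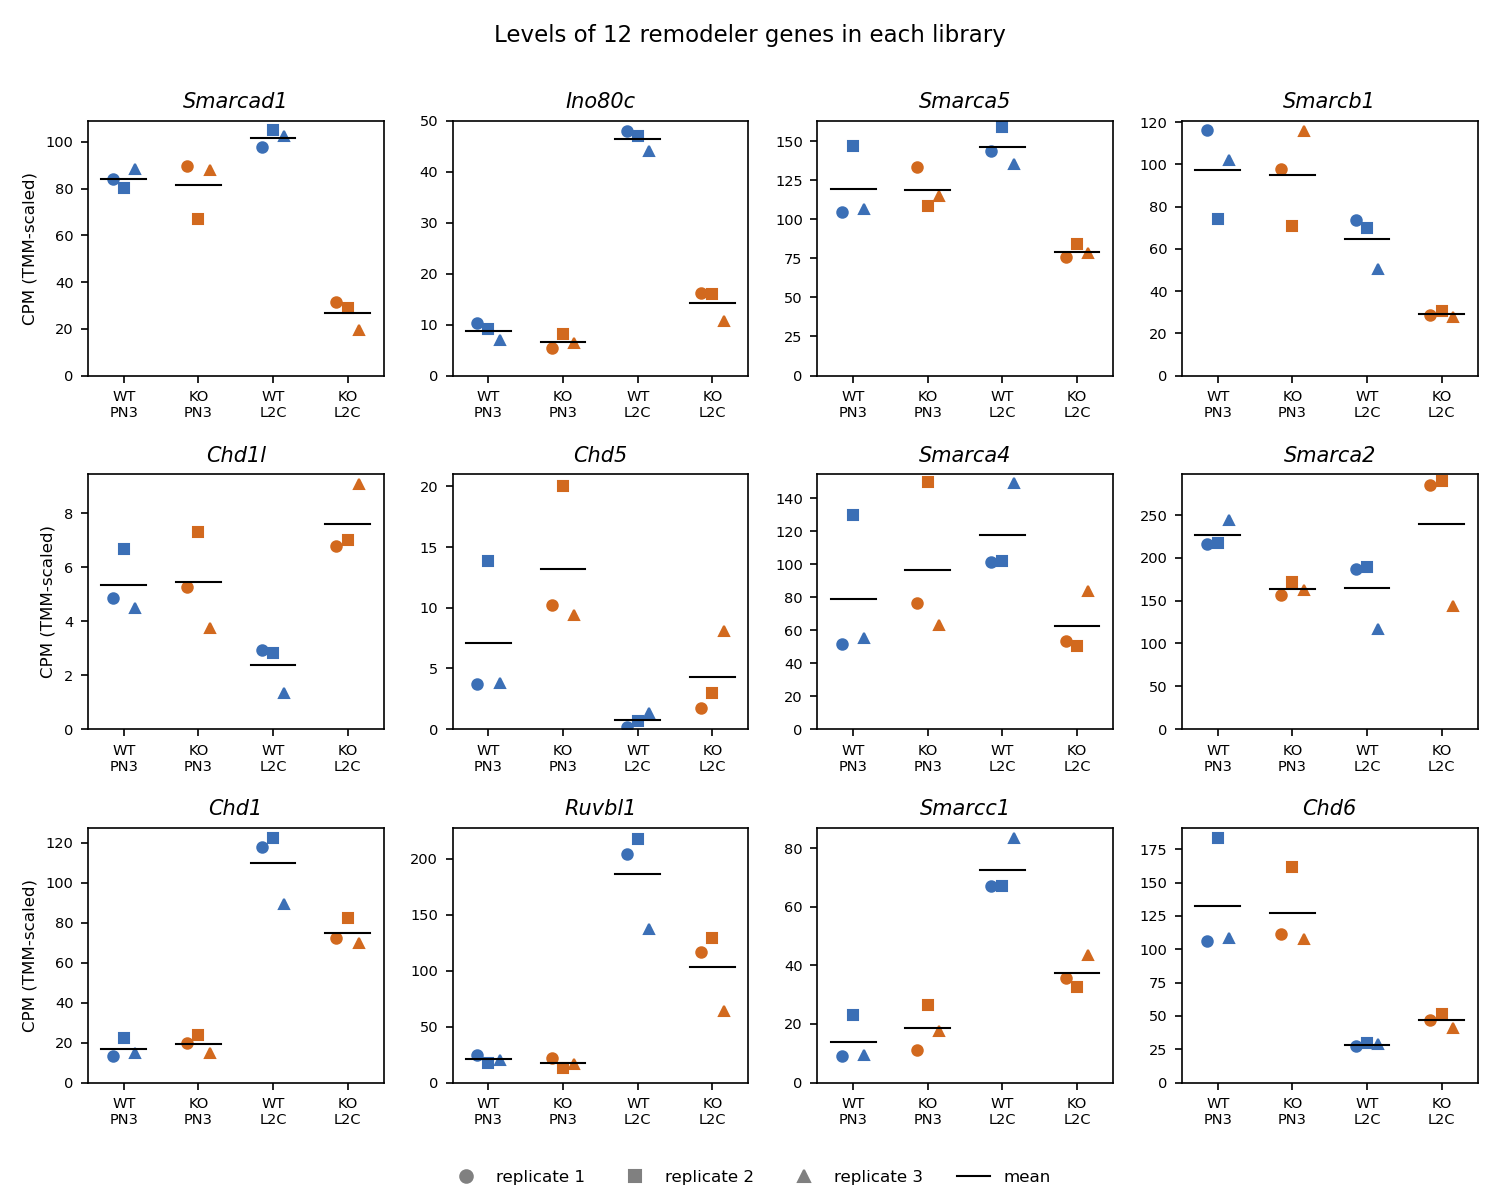
Levels of 12 remodeler genes in every library, in CPM on the vertical axis from 0, by group on the horizontal axis (blue WT, orange KO, marker shape for the replicate, bar for the mean of 3). Smarcad1 and Ino80c sit lower in all 3 KO L2C libraries than in all 3 WT L2C libraries, while WT and KO overlap at PN3 for both genes. In the interaction test the difference between the stages was called for Smarcad1 and not for Ino80c (adjusted p = 0.0734).

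At PN3 no remodeler gene was called different between KO and WT zygotes. In edgeR's quasi-likelihood test with Benjamini-Hochberg adjustment over all 21160 genes, called at an adjusted p under 0.05, 0 of 34 were higher and 0 lower, where 0.0898% of all genes tested were called higher and 0.0425% lower. At an unadjusted p under 0.05 there were 2 (Smarca5-ps and Ino80e), where 10.1% of all genes were. DESeq2 also called 0, with no adjusted p for 1 gene, where it called 1.45% of all genes higher and 1.09% lower. The median log2 fold change of the 34 genes was 0.10, against 0 over all genes. So few genes passed in this comparison that a count of 0 does not set the remodelers apart, and it does not show that they were equal. For Smarca4 the values were 51.3, 129.9 and 55.1 CPM in the 3 WT PN3 libraries against 76.3, 149.6 and 63.2 in KO PN3 (log2 fold change 0.29, SE 0.40, adjusted p = 0.925). The groups overlapped, and replicate 2 was the highest library of both. For Smarca2 they were 217, 218 and 244 CPM in WT against 157, 172 and 162 in KO (log2 fold change -0.47, SE 0.27, adjusted p = 0.610). Every KO library lay below every WT library for Smarca2, by an amount that did not pass the threshold. Without the 4 libraries that stood apart, Smarca2 was called lower at -0.54 (adjusted p = 0.00395) and Chd5 higher at 1.38 (adjusted p = 0.0476), 1 gene in each direction where 4.62% and 4.74% of all genes were called. The log2 fold changes of the other ATPases at PN3 were -0.01 for Smarca5 (SE 0.19, adjusted p = 1), 0.21 for Chd1 (SE 0.25, adjusted p = 0.891) and 0.10 for Chd4 (SE 0.41, adjusted p = 1). For the INO80 enzymes they were -0.07 for Ino80 (SE 0.31, adjusted p = 1), -0.27 for Ruvbl1 (SE 0.30, adjusted p = 0.870) and 0.34 for Ruvbl2 (SE 0.20, adjusted p = 0.610).

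At L2C, 4 remodeler genes were lower and 2 higher in KO than in WT embryos. The 4 lower genes were Smarcad1, Ino80c, Smarcb1 and Smarca5, which belong to different remodeler families, and the 2 higher genes, Chd1l and Chd5, were scarce in every group. Over all genes tested, 9.74% were called lower and 7.24% higher, so 4 and 2 of 34 were near the background of this comparison and are no result about remodelers as a class. At an unadjusted p under 0.05 there were 15 of 34, where 31.5% of all genes were, and the median log2 fold change was 0.02 in the 34 genes and 0.02 over all genes. In 14 of the 34 genes all 3 KO libraries lay below all 3 WT libraries, in 6 all lay above, and in 14 the groups overlapped. Over all genes tested, 24.5% had all KO libraries below all WT libraries and 19.1% had all above, without a test.

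Smarcad1, a SNF2-family enzyme that acts in DNA end resection and in keeping heterochromatin through replication, fell furthest of the coding genes (chromosome 6, 65042583 to 65116061, mm10). It stood at 98.03, 105 and 103 CPM in the 3 WT L2C libraries against 31.6, 29.04 and 19.5 in KO L2C. The KO libraries all lay far below the WT ones, with replicate 3 the lowest. The level was 3.82-fold lower in KO (log2 fold change -1.93, SE 0.22, adjusted p = 0.000470).

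Ino80c, a small subunit of the INO80 complex, stood at 47.9, 46.96 and 44.1 CPM in WT L2C against 16.2, 16.1 and 10.6 in KO L2C. The groups did not overlap, and KO replicate 3 was again the lowest library. The level was 3.24-fold lower in KO (log2 fold change -1.70, SE 0.27, adjusted p = 0.00190). Ino80 itself, the ATPase of the complex, stood at 35.2, 42.3 and 31.4 CPM in WT against 15.6, 16.97 and 23.7 in KO, also without overlap, and just missed the threshold (log2 fold change -0.95, SE 0.31, adjusted p = 0.0510). Ino80b missed it too (log2 fold change -1.09, SE 0.38, adjusted p = 0.0638). Ruvbl1 stood at 204, 218 and 137 CPM in WT against 116, 129.6 and 64.4 in KO (log2 fold change -0.85, SE 0.29, adjusted p = 0.0648), and replicate 3 was the lowest library of both groups. Ruvbl2 stood at 41.7, 46.4 and 40.2 CPM in WT against 35.2, 35.3 and 36.5 in KO (log2 fold change -0.26, SE 0.20, adjusted p = 0.395), a small gap that did not pass. The other INO80 subunits had log2 fold changes of 0.51, adjusted p = 0.196 for Ino80d and 0.07, adjusted p = 0.870 for Ino80e.

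Smarcb1, the SNF5 core subunit of the BAF and PBAF complexes and a tumour suppressor in humans, lies at chromosome 10, 75896769 to 75921617 (mm10). It stood at 73.4, 69.9 and 50.3 CPM in WT L2C against 28.8, 30.3 and 27.9 in KO L2C. The KO libraries were close together and all below WT, 2.23-fold lower on the fitted scale (log2 fold change -1.15, SE 0.25, adjusted p = 0.00809). The SWI/SNF ATPases had fold changes of opposite sign, and neither passed the test. Smarca4 stood at 101, 102 and 149 CPM in WT against 53.6, 50.05 and 83.7 in KO (log2 fold change -0.91, SE 0.40, adjusted p = 0.142), with no overlap. Smarca2 stood at 187, 189 and 117 CPM in WT against 285, 289 and 143 in KO (log2 fold change 0.54, SE 0.27, adjusted p = 0.189), where replicate 3 was the lowest library of both groups and the groups overlapped. With the replicate number as a block, which compares libraries of the same number, Smarca4 was called lower (-0.92, adjusted p = 0.000342) and Smarca2 higher (0.50, adjusted p = 0.00634). Smarcc1 was lower in all 3 KO libraries and did not pass (log2 fold change -0.96, SE 0.38, adjusted p = 0.0994). None of Smarcc2 (-0.19, adjusted p = 0.650), Smarce1 (-0.21, adjusted p = 0.454), Smarcd1 (0.17, adjusted p = 0.922), Smarcd2 (0.24, adjusted p = 0.768) and Smarcd3 (0.60, adjusted p = 0.796) passed. The ARID subunits likewise did not pass, with log2 fold changes of 0.43, adjusted p = 0.469 for Arid1a, -0.02, adjusted p = 0.970 for Arid1b and 0.45, adjusted p = 0.307 for Arid2.

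Smarca5, the ISWI ATPase also called SNF2H, lies at chromosome 8, 80698507 to 80739497 (mm10) and stood at 144, 159 and 136 CPM in WT L2C against 75.9, 83.9 and 78.3 in KO L2C. The groups did not overlap, and the level was 1.84-fold lower in KO (log2 fold change -0.88, SE 0.19, adjusted p = 0.00945). The pseudogene Smarca5-ps is a near copy of it and stood at 8.51, 7.03 and 6.46 CPM in WT against 2.34, 3.02 and 2.06 in KO (log2 fold change -1.57, SE 0.62, adjusted p = 0.0984). The split between the gene and its copy is uncertain, because the treatment of reads that match both is not stated in the sources used here.

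Chd1l (chromosome 3, 97560742 to 97610203, mm10) stood at 2.92, 2.82 and 1.34 CPM in WT L2C against 6.79, 7.003 and 9.07 in KO L2C. All KO libraries lay above all WT libraries, 3.22-fold higher on the fitted scale (log2 fold change 1.69, SE 0.42, adjusted p = 0.0162). Chd5 had only 3, 14 and 26 counts in the 3 WT L2C libraries, or 0.154, 0.648 and 1.34 CPM, against 1.71, 2.96 and 8.07 CPM in KO L2C. Replicate 3 was the highest in both groups, and the call was just past the threshold (log2 fold change 2.57, SE 0.80, adjusted p = 0.0447). The other NuRD ATPases did not pass. Chd4 stood at 46.3, 48.3 and 80.1 CPM in WT against 80.6, 85.3 and 112 in KO, with the lowest KO library only just above the highest WT library (log2 fold change 0.67, SE 0.42, adjusted p = 0.293). Chd3 had a log2 fold change of 0.67, adjusted p = 0.509. In the subfamily that binds methylated H3K4, Chd1 stood at 118, 122 and 89.3 CPM in WT against 72.3, 82.5 and 69.7 in KO, all KO libraries below WT (log2 fold change -0.55, SE 0.25, adjusted p = 0.153), and Chd2 had a log2 fold change of 0.47, adjusted p = 0.526. In subfamily III the values were 0.71, adjusted p = 0.0691 for Chd6 and 0.47, adjusted p = 0.0998 for Chd9, whose KO libraries all lay above WT. They were 0.23, adjusted p = 0.750 for Chd7 and -0.16, adjusted p = 0.886 for Chd8, whose groups overlapped. Smarcal1 (0.25, adjusted p = 0.484) and Ino80dos (-1.73, adjusted p = 0.234) did not pass.

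**Figure D2:**
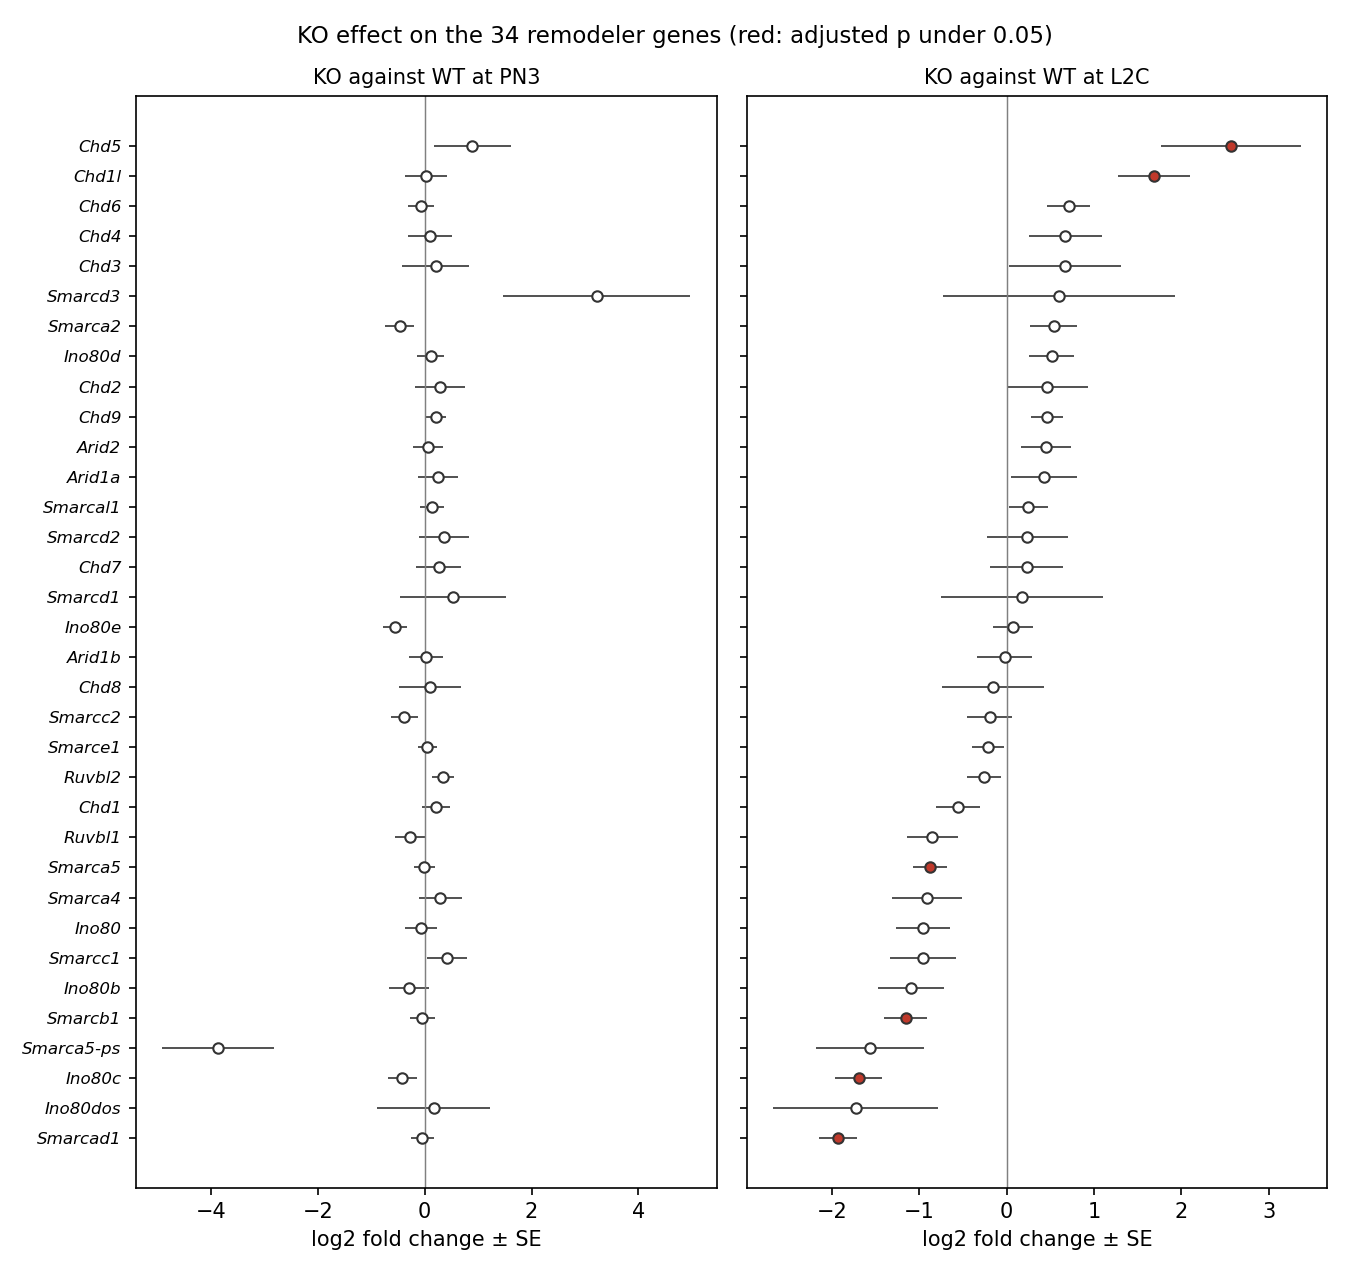
Log2 fold change of KO against WT ± SE for each of the 34 genes at PN3 (left) and L2C (right), ordered by the value at L2C, with filled red points for genes called at an adjusted p under 0.05. No gene is called at PN3, and at L2C Smarcad1 lies at -1.93 and Chd5 at 2.57.

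The number of calls at L2C depended on how the libraries were grouped. The replicate block gave 9 genes higher and 11 lower, where 14.9% and 17.3% of all genes were called. Leaving out the 4 libraries that stood apart gave 9 higher and 12 lower, where 23.0% and 22.2% of all genes were called. It kept the 6 calls above and compared only replicates 1 and 2 of L2C, the replicates described above as much closer than others. These p-values rest on a spread estimated jointly from those close replicates and from replicates 1 and 3 of PN3. The further genes called lower, with their log2 fold changes, were Smarca4 (-0.91, adjusted p = 8.78e-05), Smarcc1 (-0.91, adjusted p = 0.00151), Ino80 (-1.19, adjusted p = 0.000291), Ino80b (-1.17, adjusted p = 0.00105), Ruvbl1 (-0.72, adjusted p = 0.000867), Chd1 (-0.57, adjusted p = 0.00656), Chd8 (-0.37, adjusted p = 0.0460) and Smarca5-ps (-1.47, adjusted p = 0.0349). Those called higher were Smarca2 (0.67, adjusted p = 9.82e-05), Arid1a (0.55, adjusted p = 0.000605), Arid2 (0.43, adjusted p = 0.0133), Chd4 (0.87, adjusted p = 0.000103), Chd6 (0.85, adjusted p = 7.06e-05), Chd9 (0.60, adjusted p = 0.00458) and Ino80d (0.70, adjusted p = 0.000251). Summing the close replicates 1 and 2 of each L2C group into 1 library left 0 higher and 2 lower, Smarcad1 (adjusted p = 0.0260) and Ino80c (adjusted p = 0.0490), where 0.632% and 0.919% of all genes were called. DESeq2 called 3 higher and 8 lower (9.92% and 15.4% of all genes), and a fit of the L2C groups alone 2 higher and 8 lower (11.2% and 13.8%). Under DESeq2 size factors the split was 1 higher and 6 lower (6.29% and 11.1% of all genes), and under upper quartile scaling 4 higher and 4 lower (10.9% and 7.07%). Smarcad1 and Ino80c were called lower in all 20 alternatives, Chd1l higher in 19, Smarca5 lower in 18, Smarcb1 lower in 17 and Chd5 higher in 11, with no change of sign for any of these 6 genes. Smarca5 lost its call without WT L2C replicate 2 (adjusted p = 0.0506), and Smarcb1 without WT L2C replicate 1 (0.0554) or 2 (0.0506). Chd5 lost its call without KO PN3 replicate 1 (0.0544) or 3 (0.0503), WT L2C replicate 1 (0.139) or 2 (0.137), or KO L2C replicate 2 (0.0667) or 3 (0.157).

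Marker lists also differed between the L2C groups. The 5 listed 2-cell markers in the table summed to 648 to 1493 CPM in WT L2C and 195 to 640 CPM in KO L2C, without overlap. The 8 granulosa or cumulus markers summed to 7.49 to 10.8 CPM in WT and 17.3 to 32.5 CPM in KO, with Fshr and Inha at 0 in both groups. Of that list Foxl2 alone accounted for most of the gap, with means of 1.68 CPM in WT against 16.0 in KO, while Kitl stood at 5.43 and 4.07, Cyp19a1 at 1.62 and 1.91 and Has2 at 0.649 and 0.621 CPM. The 6 sperm markers summed to 3.15 to 5.64 CPM in WT and 7.62 to 9.27 CPM in KO. The blood, oviduct or stroma markers overlapped between the groups (57.4 to 84.5 CPM in WT and 46.2 to 73.2 CPM in KO). Hba-a1 alone made up most of this sum, with means of 71.1 CPM in WT and 53.7 in KO. Col1a1 stood at 1.42 and 3.24, Ovgp1 at 0.767 and 0.262, Ptprc at 0.487 and 0.110 and Hbb-bs at 0.0344 and 0 CPM. The part of these differences in the remodeler values was not tested.

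Of the genes called at L2C, the promoters of Smarcad1, Smarca5, Smarcb1 and Chd1l are printed from the RefSeq annotation of GRCm38.p6. That of Ruvbl1, the gene that led at that stage, is added. Chd5 was also called and is not printed, and no window was found for Ino80c, so the genes that rose are shown by Chd1l alone. Each runs from 250 bases before to 50 bases after the gene's start, on the strand of the gene. Capitals mark matches, on either strand, to 4 motif letters: the CCAAT box (CCAAT), the GC box (GGGCGG), the ETS core (CCGGAAG) and the nuclear receptor site (AAGGTCA). The windows are chr6:65042341-65042640, plus strand, for Smarcad1, chr8:80739410-80739709, minus strand, for Smarca5, chr10:75921565-75921864, minus strand, for Smarcb1, chr3:97610141-97610440, minus strand, for Chd1l, and chr6:88465159-88465458, plus strand, for Ruvbl1.
Smarcad1: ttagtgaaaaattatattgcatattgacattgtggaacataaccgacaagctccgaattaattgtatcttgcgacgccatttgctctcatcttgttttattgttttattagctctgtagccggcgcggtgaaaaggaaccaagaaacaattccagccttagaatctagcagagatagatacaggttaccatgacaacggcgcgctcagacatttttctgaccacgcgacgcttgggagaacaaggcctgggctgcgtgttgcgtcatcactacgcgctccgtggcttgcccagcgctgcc
Smarca5: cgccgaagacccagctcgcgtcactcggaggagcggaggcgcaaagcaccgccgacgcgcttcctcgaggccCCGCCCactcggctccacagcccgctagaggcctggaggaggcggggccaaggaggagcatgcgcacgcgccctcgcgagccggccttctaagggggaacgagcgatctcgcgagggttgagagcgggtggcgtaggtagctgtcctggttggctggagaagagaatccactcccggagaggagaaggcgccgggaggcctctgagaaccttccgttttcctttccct
Smarcb1: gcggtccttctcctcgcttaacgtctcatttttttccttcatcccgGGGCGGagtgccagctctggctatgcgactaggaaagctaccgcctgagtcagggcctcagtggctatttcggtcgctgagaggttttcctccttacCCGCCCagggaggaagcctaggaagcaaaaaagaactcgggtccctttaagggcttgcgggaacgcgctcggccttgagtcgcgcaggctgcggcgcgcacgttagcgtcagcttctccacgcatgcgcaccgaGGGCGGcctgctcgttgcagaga
Chd1l: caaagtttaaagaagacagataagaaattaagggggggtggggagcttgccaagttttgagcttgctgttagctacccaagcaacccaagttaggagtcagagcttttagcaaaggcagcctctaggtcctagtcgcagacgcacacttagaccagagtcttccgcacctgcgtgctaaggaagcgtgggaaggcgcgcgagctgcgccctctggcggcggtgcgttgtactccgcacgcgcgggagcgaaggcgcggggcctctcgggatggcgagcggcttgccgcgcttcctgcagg
Ruvbl1: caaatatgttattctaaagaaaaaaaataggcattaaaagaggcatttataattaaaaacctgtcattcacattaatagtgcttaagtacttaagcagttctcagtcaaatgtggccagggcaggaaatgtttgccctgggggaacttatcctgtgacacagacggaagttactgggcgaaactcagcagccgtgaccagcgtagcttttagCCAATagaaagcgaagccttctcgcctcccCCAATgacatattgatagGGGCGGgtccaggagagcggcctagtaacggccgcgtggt
Smarcad1, which fell, and Chd1l, which rose, held none of the 4 motifs in these windows. Chd5, which also rose, had a GC box in at least 1 window that is not printed. Smarcb1 held 3 GC boxes and Smarca5 held 1, while Ruvbl1 held 2 CCAAT boxes and 1 GC box. A window was found for 25 of the 34 genes, and a GC box stood in at least 1 window of 23 of these. It stood in 35.7% of the 32851 windows in the table. These shares count single windows, of genes tested or not, and are not a like background for counts of genes. A CCAAT box stood in a window of 9 of the 25 (37.4% of all windows), an ETS core in 4 (8.86%) and the nuclear receptor site in 0 (4.72%). Smarcad1 and Chd5 have more than 1 start in the table. The window printed for Smarcad1 is the one nearest the start of the deposited gene model, and its CCAAT box in the count of 9 lies in another window. A match is a run of letters and not a site shown to be used.

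The difference between the KO effects at L2C and at PN3 was called for 1 of the 34 genes. Smarcad1 stood at 84.03, 80.4 and 88.4 CPM in WT PN3 against 89.6, 67.1 and 88.1 in KO PN3, where the groups overlapped, while at L2C they did not. The KO effect at L2C was lower than that at PN3 by a log2 difference of -1.89 (SE 0.30, adjusted p = 0.00655). Over all genes tested, 3.09% were called lower and 1.85% higher in this test, and 0 of 34 remodelers were called higher. At an unadjusted p under 0.05 there were 9, where 21.3% of all genes were, and DESeq2 called 1 higher and 4 lower, where it called 4.67% and 8.28% of all genes. Smarcad1 was called in 18 of 19 alternatives. The exception was the sum of L2C replicates 1 and 2 (adjusted p = 0.0904), under which 0 of all genes tested were called in either direction. Besides Smarcad1, no gene called at L2C passed. Ino80c had -1.28 (SE 0.38, adjusted p = 0.0734), and Smarcb1 had -1.11 (SE 0.34, adjusted p = 0.0820). Smarca5 had -0.87 (SE 0.27, adjusted p = 0.0840). Chd1l had 1.66 (SE 0.57, adjusted p = 0.115), and Chd5 had 1.67 (SE 1.06, adjusted p = 0.394). Smarca4 (-1.20, adjusted p = 0.245) and Smarca2 (1.01, adjusted p = 0.147) lay on opposite sides of 0 without passing. Chd1 (-0.76, adjusted p = 0.240), Ino80 (-0.89, adjusted p = 0.264), Ruvbl1 (-0.58, adjusted p = 0.457), Ruvbl2 (-0.60, adjusted p = 0.233) and Chd4 (0.58, adjusted p = 0.629) did not pass either. With the replicate block, 3 were called higher and 8 lower, where 8.12% and 9.71% of all genes were called, among them Smarca4 (-1.25, adjusted p = 0.00109) and Smarca2 (0.97, adjusted p = 0.00241). Without the 4 libraries that stood apart the counts were 4 and 8, where 15.4% and 12.5% of all genes were called. With their log2 differences, the higher ones were Smarca2 (1.21, adjusted p = 3.29e-05), Chd1l (1.38, adjusted p = 0.0335), Chd4 (0.89, adjusted p = 0.00202) and Chd6 (0.83, adjusted p = 0.00188). Those lower besides Smarcad1 were Smarca4 (-1.29, adjusted p = 0.000171), Smarca5 (-1.08, adjusted p = 0.000278), Smarcb1 (-1.17, adjusted p = 0.000273), Smarcc1 (-1.54, adjusted p = 0.000955), Chd1 (-0.87, adjusted p = 0.00856), Ino80 (-1.02, adjusted p = 0.0127) and Ino80c (-0.90, adjusted p = 0.0355). Leaving out WT PN3 replicate 2 gave 2 lower (2.32% of all genes), and leaving out KO L2C replicate 3 gave 1 higher (2.5% of all genes).

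From PN3 to L2C, 8 remodeler genes of WT embryos rose, 10 fell and 16 had no call. Ruvbl1, Chd1, Ino80c, Smarcc1, Smarcd1 and Smarcd3 rose, with Smarca5-ps and Ino80dos. Chd5, Chd6, Smarcal1, Chd4, Ino80e, Chd9, Smarcc2, Chd1l, Arid1b and Smarcb1 fell. Over all genes tested 36.2% rose and 25.4% fell, and the median log2 fold change was -0.31 in the 34 genes and 0.38 over all genes. In KO embryos 5 rose and 13 fell, where 33.5% and 20.1% of all genes did, with medians of -0.54 and 0.41. The KO and WT stage comparisons use separate libraries, but each shares libraries with the KO comparisons above. With the 4 libraries left out, 9 rose and 16 fell in WT (40.9% and 32.6% of all genes) and 8 rose and 18 fell in KO (40.2% and 26.7%). On the log2 scale, in WT this added Smarca4 (0.86, adjusted p = 3.96e-05) and Smarca5 (0.44, adjusted p = 0.00340) to those that rose, where Smarcd3 fell below the count filter and was not tested, and Arid1a (-0.84, adjusted p = 4.24e-06), Arid2 (-0.49, adjusted p = 0.00321), Smarca2 (-0.37, adjusted p = 0.00356), Chd8 (-0.48, adjusted p = 0.00664), Ino80d (-0.35, adjusted p = 0.0132) and Ruvbl2 (-0.53, adjusted p = 0.00287) to those that fell. In KO it added Smarca2 (0.84, adjusted p = 4.15e-06), Smarcd1 (2.78, adjusted p = 0.000837) and Ino80dos (2.23, adjusted p = 0.0478) to those that rose, and Smarca4 (-0.44, adjusted p = 0.00866), Arid1a (-0.62, adjusted p = 9.54e-05), Smarce1 (-0.40, adjusted p = 0.0181), Chd5 (-2.07, adjusted p = 0.000739), Chd7 (-0.44, adjusted p = 0.00523) and Chd8 (-0.94, adjusted p = 5.64e-05) to those that fell, where Ino80b lost its call (adjusted p = 0.0577). With L2C replicates 1 and 2 summed, 6 fell in KO (14.7% of all genes). The count that fell in KO was 7 without KO L2C replicate 1 (15.9% of all genes), 8 without KO L2C replicate 2 (15.8%) and 8 in a fit of the KO groups alone (19.8%). Under DESeq2 size factors 10 rose and 7 fell in WT (39.4% and 21.5% of all genes) and 6 and 9 in KO (35.5% and 17.7%). Under upper quartile scaling 8 rose and 11 fell in WT (35.3% and 26.9%) and 6 and 9 in KO (35.3% and 17.9%).

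Ruvbl1, which works in INO80, SRCAP and TIP60 complexes, rose most of the coding genes other than Smarcd3 in WT. It stood at 24.2, 17.9 and 20.1 CPM in WT PN3 and 204, 218 and 137 CPM in WT L2C, 8.98-fold higher (log2 fold change 3.17, SE 0.32, adjusted p = 3.10e-06). In KO it went from 21.9, 12.9 and 16.9 CPM to 116, 129.6 and 64.4 CPM (log2 fold change 2.58, SE 0.31, adjusted p = 2.09e-05). No library of either stage overlapped the other. Its partner Ruvbl2 stood at 58.1, 43.7 and 62.4 CPM in WT PN3 and 41.7, 46.4 and 40.2 CPM in WT L2C, a difference that did not pass (-0.36, adjusted p = 0.131). In KO Ruvbl2 fell from 62.8, 69.9 and 75.8 to 35.2, 35.3 and 36.5 CPM (-0.96, adjusted p = 0.00131).

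Chd1 rose in both genotypes, from 13.1, 22.2 and 14.6 to 118, 122 and 89.3 CPM in WT (log2 fold change 2.72, SE 0.27, adjusted p = 2.70e-06) and from 19.6, 23.6 and 14.7 to 72.3, 82.5 and 69.7 CPM in KO (log2 fold change 1.96, SE 0.26, adjusted p = 4.95e-05). In mouse embryonic stem cells Chd1 is known for keeping chromatin open. Ino80c rose from 10.4, 9.04 and 6.996 to 47.9, 46.96 and 44.1 CPM in WT (log2 fold change 2.40, SE 0.28, adjusted p = 1.08e-05) and from 5.31, 8.19 and 6.33 to 16.2, 16.1 and 10.6 CPM in KO (log2 fold change 1.11, SE 0.27, adjusted p = 0.00406). Smarcc1, also called BAF155, rose from 8.99, 23.1 and 9.49 to 67.2, 66.99 and 83.4 CPM in WT (log2 fold change 2.39, SE 0.39, adjusted p = 0.000193) and from 11.2, 26.5 and 17.7 to 35.9, 32.7 and 43.4 CPM in KO (log2 fold change 1.02, SE 0.38, adjusted p = 0.0374). All 3 genes were above the zygote in every L2C library. Smarcd1 rose in WT (2.56, adjusted p = 0.0405) and did not pass in KO (2.20, adjusted p = 0.0757). The WT call for Smarcd1 held in 14 of 20 alternatives, and the KO call for Smarcc1 in 15 of 20.

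Genes near 0 in the zygote rose as well. Smarca5-ps had 0, 0 and 1 counts in KO PN3 and 138 over the 3 KO L2C libraries, a ratio of 156 after scaling (95% exact counting interval 27.6 to 6221), and was called in both genotypes. Smarcd3 had 1, 0 and 0 counts in WT PN3 and 3, 5 and 18 in WT L2C, most of them in replicate 3, which stood apart. The 26 counts over WT L2C gave a ratio of 29.8 (95% exact counting interval 4.89 to 1221). The WT call for Smarcd3 held in 9 of 18 alternatives, with an adjusted p of up to 0.151. These intervals cover counting error only. Ino80dos, at 0.146, 0 and 0.350 CPM in WT PN3 and 1.999, 2.73 and 2.43 CPM in WT L2C, was called in WT (3.78, adjusted p = 0.00721) and not in KO (1.89, adjusted p = 0.134).

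Among the genes that fell, Smarcal1 was called lower in both genotypes. It stood at 103, 102 and 76.04 CPM in WT PN3 and 20.7, 19.3 and 21.8 CPM in WT L2C (log2 fold change -2.18, SE 0.23, adjusted p = 5.03e-06), and fell in KO with a log2 fold change of -2.07, adjusted p = 1.13e-05. Chd6 fell from 106, 183 and 108 to 27.4, 29.4 and 28.6 CPM in WT (log2 fold change -2.22, SE 0.26, adjusted p = 1.10e-05) and from 111, 162 and 108 to 46.8, 51.7 and 41.2 CPM in KO (log2 fold change -1.45, SE 0.25, adjusted p = 0.000394). No L2C library of either gene reached its PN3 libraries. Chd4 fell from 132, 286 and 124 to 46.3, 48.3 and 80.1 CPM in WT (log2 fold change -1.63, SE 0.42, adjusted p = 0.00482) and fell in KO (-1.06, adjusted p = 0.0475), with replicate 2 the highest PN3 library of each genotype. The KO call for Chd4 held in 7 of 20 alternatives. Chd9 (-1.19 in WT and -0.94 in KO), Smarcc2 (-1.17 and -0.99), Arid1b (-1.04 and -1.10) and Ino80e (-1.39 and -0.77) fell in both genotypes on the log2 scale. So did Smarcb1 (-0.59, adjusted p = 0.0481 in WT and -1.71, adjusted p = 9.98e-05 in KO), for which the WT call held in 9 of 20 alternatives. The Arid1b calls held in 16 of 20 in WT and 17 of 20 in KO. The KO call for Ino80e, whose level is uncertain through its overlap with Hirip3, held in 14 of 20. Chd5 (-3.30, adjusted p = 0.00361) and Chd1l (-1.17, adjusted p = 0.0244) were called lower in WT, and in KO their values were -1.63, adjusted p = 0.0794 and 0.49, adjusted p = 0.327. The WT call for Chd1l held in 16 of 20 alternatives.

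Some genes were called lower from PN3 to L2C in KO and not in WT. Smarcad1 had a log2 fold change of -1.61, adjusted p = 5.31e-05 in KO and 0.27, adjusted p = 0.278 in WT, the difference given above as the interaction. Smarca5 had -0.58, adjusted p = 0.0215 in KO and 0.29, adjusted p = 0.205 in WT, Ino80 -0.81, adjusted p = 0.0417 and 0.08, adjusted p = 0.834, Ino80b -0.96, adjusted p = 0.0460 and -0.16, adjusted p = 0.723, and Ruvbl2 the values given above. The KO calls held in 13 of 20 alternatives for Smarca5 and in 6 of 20 for each of Ino80 and Ino80b. For these last 4 the difference between genotypes did not pass the interaction test. In WT, DESeq2 called Smarcad1 (0.53, adjusted p = 0.0125) and Smarca5 (0.55, adjusted p = 0.00591) higher at L2C. The edgeR test with DESeq2 size factors gave the same log2 fold changes (adjusted p = 0.0348 and 0.0236). That scaling also raised the median log2 fold change of all genes in this comparison, so these calls depend on the scaling. Every WT L2C library of Smarcad1 lay above every WT PN3 library. Smarca4 (0.58, adjusted p = 0.227 in WT and -0.63, adjusted p = 0.209 in KO) and Smarca2 (-0.46, adjusted p = 0.153 and 0.55, adjusted p = 0.104) were called in neither genotype. In all, 5 genes rose in both genotypes, 8 fell in both, 3 rose and 2 fell with a call in WT alone, 5 fell with a call in KO alone, and 11 had no call.

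**Figure D3:**
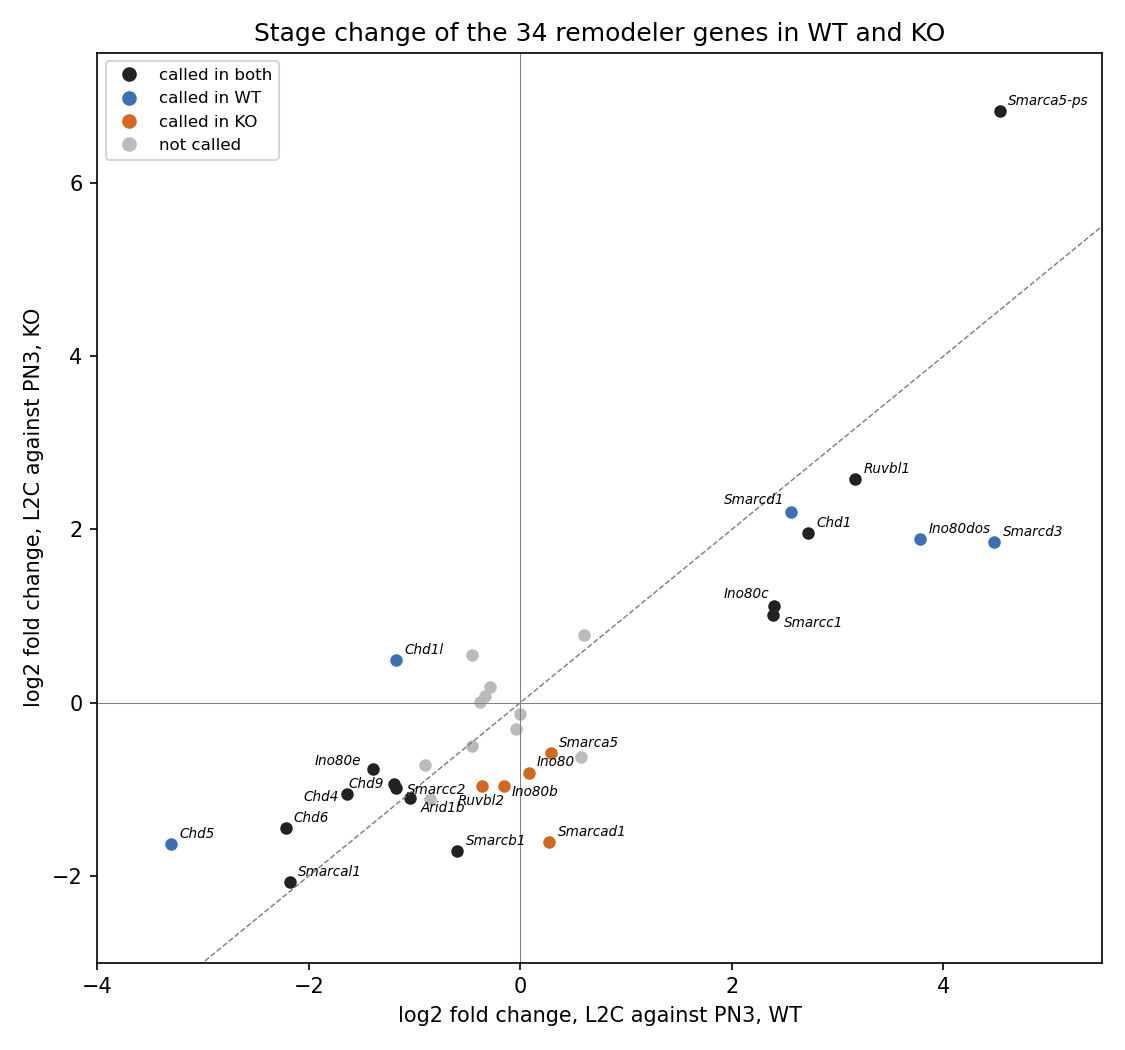
Log2 fold change from PN3 to L2C of the 34 genes in WT (horizontal axis) and KO (vertical axis), coloured by whether the change was called in both genotypes, in one or in neither, with a dashed line where both are equal. Smarcad1 lies at 0.27 in WT and -1.61 in KO, and Ruvbl1 at 3.17 and 2.58.

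The balance between paired subunits of a complex lay on opposite sides of 1 at the 2 stages for Ruvbl1 with Ruvbl2 and for Smarcc1 with Smarcc2. The pairs were chosen after their values were seen, and the ratios of CPM per kilobase within each library are a description with no test. Ruvbl1 stood at 0.492 to 0.637 times Ruvbl2 in WT PN3, 0.282 to 0.532 times in KO PN3, 5.22 to 7.48 times in WT L2C and 2.695 to 5.60 times in KO L2C. Ruvbl1 and Ruvbl2 are known to join in a single hetero-oligomeric ring, while Smarcc1 and Smarcc2, Smarca4 and Smarca2, and Arid1a and Arid1b can take each other's place. Smarcc1 stood at 0.234 to 0.525 times Smarcc2 in WT PN3, 0.351 to 0.824 in KO PN3, 3.67 to 5.06 in WT L2C and 2.09 to 2.73 in KO L2C. Both ratios were under 1 in every zygote library and over 1 in every L2C library, and for Smarcc1 the KO L2C libraries all lay below the WT L2C ones. For Smarca4 over Smarca2 the lowest, median and highest ratios were 0.497, 0.521 and 1.31 in WT PN3 and 0.857, 1.07 and 1.92 in KO PN3. They were 1.18, 1.19 and 2.81 in WT L2C and 0.381, 0.414 and 1.29 in KO L2C. The groups overlapped at both stages. Set against the library of the same number, the KO ratio was the lower one in all 3 pairs at L2C and the higher one in all 3 pairs at PN3, and the highest ratio of each group was that of the library that stood apart. Arid1a stood at 2.81 to 3.64 times Arid1b in WT PN3, 3.45 to 4.47 in KO PN3, 3.26 to 3.995 in WT L2C and 4.98 to 5.18 in KO L2C, and Chd4 stood at 10.9 times the level of Chd3 or more in every library.

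**Figure D4:**
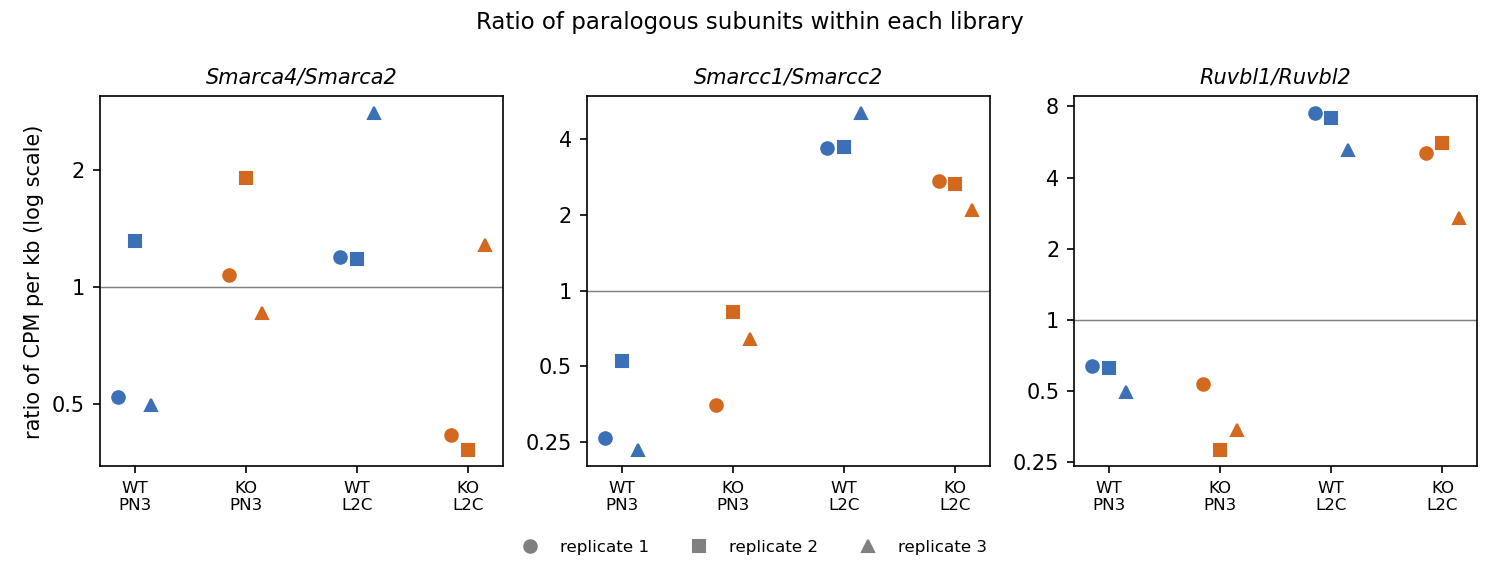
Ratio of CPM per kilobase between paired subunits in each library, on a log axis, by group (blue WT, orange KO, marker shape for the replicate, grey line at 1). Smarcc1 over Smarcc2 and Ruvbl1 over Ruvbl2 lie below 1 in all 6 PN3 libraries and above 1 in all 6 L2C libraries, while Smarca4 over Smarca2 spans 1.18 to 2.81 in WT L2C and 0.381 to 1.29 in KO L2C.

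Other subunits of the same complexes and other SNF2-family ATPases, whose symbols the name patterns do not match, were listed separately. They made 77 symbols, of which 74 were tested, 12 of them such ATPases. At L2C 6 were higher and 14 lower in KO, with a median log2 fold change of -0.13, against 7.24% and 9.74% of all genes. These calls are given from the main fit alone, without alternatives. Among the 34 genes, 2 of the 6 calls at L2C were kept when L2C replicates 1 and 2 were summed. By complex, 3 higher and 1 lower of 17 belonged to SWI/SNF, 0 and 3 of 9 to ISWI, 0 and 3 of 12 to NuRD, 2 and 5 of 24 to INO80, SRCAP and TIP60, and 1 and 2 of 12 were other SNF2-family ATPases. Tfpt, a metazoan INO80 subunit, stood at 53.8 ± 8.95 CPM in WT against 20.9 ± 4.60 in KO (log2 fold change -1.36, SE 0.26, adjusted p = 0.00435). Mta3 of NuRD stood at 66.3 ± 8.38 and 35.7 ± 1.93 CPM (log2 fold change -0.89, SE 0.18, adjusted p = 0.00572). Brd8, a bromodomain subunit of TIP60, stood at 94.8 ± 5.62 and 49.7 ± 6.37 CPM (log2 fold change -0.93, SE 0.21, adjusted p = 0.00990). Pole3, a histone-fold protein of the ISWI complex CHRAC, stood at 106 ± 14.02 and 61.99 ± 9.37 CPM (log2 fold change -0.78, SE 0.19, adjusted p = 0.0175). On the higher side were the zinc-finger SWI/SNF subunits Bcl11a, at 3.51 ± 2.40 CPM in WT against 21.2 ± 2.02 in KO (log2 fold change 2.59, SE 0.49, adjusted p = 0.00454), and Bcl11b, which was near 0 in WT at 0.138 ± 0.196 CPM and stood at 5.58 ± 1.47 CPM in KO (adjusted p = 0.00862). Yeats4, the acetyl-lysine reader of TIP60 and SRCAP, stood at 102 ± 9.37 and 217 ± 8.51 CPM (log2 fold change 1.09, SE 0.22, adjusted p = 0.00560). Brd7 of PBAF stood at 61.5 ± 4.07 and 111 ± 11.3 CPM (log2 fold change 0.86, SE 0.18, adjusted p = 0.00778). At PN3 0 of the 74 were called in edgeR, as among the 34. From PN3 to L2C 19 rose and 27 fell in WT (36.2% and 25.4% of all genes), and 11 rose and 28 fell in KO (33.5% and 20.1%). In the interaction test 0 were higher and 4 lower (1.85% and 3.09% of all genes): Cdk2ap1 (-2.97, adjusted p = 0.0152), Baz1a (-1.57, adjusted p = 0.0188), Mta3 (-1.12, adjusted p = 0.0243) and Tfpt (-1.59, adjusted p = 0.0261).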

How the data were processed

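For 12 mouse libraries the authors deposited whole-number counts per gene without normalization, as the file headers and values show. Per the submitters' processing notes, the mm10 build and the tools DESeq2, featureCounts 2.0.2, STAR 2.7.10a and Trim Galore 0.6.7 were used. Not given in the sources used here are strand and multi-mapping settings. Libraries were grouped by their titles. Total counts ran from 14453592 to 28624766 per library, and a floor of 3 counts covers counting error only.

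Counts were tested with edgeR 4.0.16 (limma 3.58.1, R 4.3.3): filterByExpr kept 21160 genes and left out 34131, TMM scaled the libraries, and robust quasi-likelihood tests gave 5 comparisons from a single fit of 4 group means over the 12 libraries. The threshold was an adjusted p (Benjamini-Hochberg, over all genes tested) of 0.05. The fit was tested on simulated data. CPM used the counts of tested genes times the TMM factor, and CPM per kb divided by the deposited gene length. Named were Pan2, every coding gene that passed, with full statistics for those called in a KO comparison or the interaction and for the principal ATPases, and the 4 partner subunits of lowest adjusted p per direction at L2C. The genes, lists and tests were chosen with earlier results of these data known.

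Within a stage, WT and KO libraries of equal number deviated together from their group means (correlations across genes of 0.165, 0.455 and 0.274 at PN3 and 0.128, 0.150 and 0.221 at L2C), which comes from the data and not from any label. The tests above carry no pairing; a shared number enters as a block only in an alternative, whose values stand beside the results it changes. Some libraries of different numbers correlated as much (0.205 and 0.211 at PN3, 0.132 and 0.140 at L2C). Alternatives were DESeq2 1.42.0, other scalings, no filter, fewer groups in the fit, a replicate block, leaving out each library or the 4 that stood apart, and summing L2C replicates 1 and 2. The 4 motifs were searched in RefSeq promoter windows of GRCm38.p6, the assembly that mm10 names.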

Additional observations from a re-analysis of the deposited data

Results flagged for a closer look

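The effect of the maternal Pan2 deletion on Smarcad1 differed between the stages by the test of that difference. The log2 difference, KO effect at L2C minus KO effect at PN3, was -1.89 (edgeR quasi-likelihood interaction test). The KO effect was -0.05 at PN3 and -1.93 at L2C.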

How the results depend on the processing

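No call among Smarcad1, Ino80c, Smarca5, Smarcb1, Chd1l and Chd5 changed sign under any alternative that was run, and the cause of the changes below was not tested. Counts are given as higher and lower out of 34. With the 4 libraries that stood apart left out, the counts were 1 and 1 for KO against WT at PN3, 9 and 12 at L2C, 4 and 8 in the interaction, 9 and 16 from PN3 to L2C in WT, and 8 and 18 in KO. The replicate block within stages gave 9 and 11 at L2C and 3 and 8 in the interaction, with 0 and 0 at PN3, and changed no call among the 6 genes. A replicate block across stages gave 7 and 9 in WT and 5 and 12 in KO. With L2C replicates 1 and 2 summed, the counts were 0 and 2 at L2C, 0 and 0 in the interaction, and 6 lower from PN3 to L2C in KO. DESeq2 gave 8 lower at L2C, and 1 and 4 in the interaction. DESeq2 size factors gave 1 higher at L2C and 2 lower in the interaction, and upper quartile scaling gave 4 higher at L2C. Upper quartile scaling moved the median log2 fold change of all genes from 0.02 to 0.23 at L2C and from 0.09 to 0.32 in the interaction, and DESeq2 size factors moved it from 0.38 to 0.63 from PN3 to L2C in WT. A fit of only the groups compared gave 8 lower at L2C and 8 lower from PN3 to L2C in KO. Leaving out each library in turn gave 1 to 3 higher and 2 to 6 lower at L2C, 0 to 1 higher and 1 to 2 lower in the interaction, 0 higher and 0 lower at PN3, 6 to 8 higher and 9 to 11 lower from PN3 to L2C in WT, and 4 to 7 higher and 7 to 13 lower in KO. Depth limits Smarcd3, Ino80dos, Smarca5-ps and Chd5, which had few counts in at least 1 group.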
